A study of Mus musculus with 3 samples.

Results

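ALCAM+ Sca-1- cells are endosteal cells, cells of the inner bone surface, that carry the adhesion molecule ALCAM and lack the stem and progenitor marker Sca-1. They were measured on 1 array of the 3 in the series, and the array was found by the phenotype in its label. The study used C57BL/6 mice. Femur and tibia fragments were digested with collagenase, and the released cells that were CD45- CD31- Ter119-, lacking surface proteins of white cells, endothelium and erythroid cells, were split by sorting. ALCAM(+) Sca-1(-) cells are written ALCAM+. The comparison populations are ALCAM(-) Sca-1(+), written Sca-1+, and the cells with neither surface protein, ALCAM(-) Sca-1(-), written marker-negative. No age, sex, number of mice or pooling is given in the labels used here. The question was which genes set ALCAM+ cells off from both other populations at once, in either direction. With 1 array per population no replicate exists against which to check a difference, and no test was made, so higher and lower refer to the arrays measured. Each array gives the RNA of many cells together, so fewer cells of a type and less RNA per cell cannot be told apart.

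Bone is laid down by osteoblasts, which secrete collagen and the proteins that let mineral form in it, and which come from mesenchymal progenitors. Some osteoblasts become enclosed in the matrix as osteocytes, which sense load and control phosphate and further bone formation through secreted proteins. Osteoblasts are joined to each other by cadherins, and cells of the endosteum were among the first proposed to hold blood stem cells in place.

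Of 12643 genes above a floor signal of 75.4 on at least 1 array, 138 (1.09%) were at least 4-fold higher on the ALCAM+ array than on both others, and 86 (0.68%) were at least 4-fold lower. Fold above means the ALCAM+ signal over the brighter of the other two arrays, and fold below means the dimmer of the other two over ALCAM+, after signals under the floor, the pooled median, were raised to it. A fold whose dimmer side did not exceed the floor is a lower bound, written as at least that size. The genes set off upward were led by bone and osteocyte matrix genes, cadherins, axon guidance genes, lipid mediator genes and several genes best known from muscle. Those set off downward fell into groups of 20 matrix genes, 12 innate immune genes, 11 cytoskeletal and organelle genes, 10 surface receptor or ligand genes and smaller ones. The grouping by function used below was made after the values were seen, and each gene stands in 1 group.

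The starts of 2 bone genes set off upward are shown because RUNX proteins, the transcription factors that start osteoblast differentiation, bind the core letters TGTGGT. Each window is the 250 bases before a transcription start, from RefSeq on GRCm38.p6. The first is a start of Dmp1 on the plus strand at chr5:104202367-104202616, and the second is that of Ifitm5 on the minus strand at chr7:140950244-140950493. Capitals mark a match to the RUNX core on either strand.
Dmp1: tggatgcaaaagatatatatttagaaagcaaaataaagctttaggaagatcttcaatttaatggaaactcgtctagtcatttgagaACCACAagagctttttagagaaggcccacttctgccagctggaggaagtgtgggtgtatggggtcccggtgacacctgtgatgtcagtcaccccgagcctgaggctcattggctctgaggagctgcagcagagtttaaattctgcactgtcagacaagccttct
Ifitm5: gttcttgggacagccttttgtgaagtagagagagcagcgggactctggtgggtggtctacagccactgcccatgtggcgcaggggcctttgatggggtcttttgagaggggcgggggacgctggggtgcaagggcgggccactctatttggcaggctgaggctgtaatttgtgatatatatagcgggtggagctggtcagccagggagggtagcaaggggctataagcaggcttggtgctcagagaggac
The Dmp1 window held 1 match, on the reverse strand as ACCACA, from base -164 to base -159 before the start, and it overlapped no match to the AP-1 letters given below. In the Ifitm5 window these letters were not found, nor in the window of the other Dmp1 start at chr5:104197325-104197574. The windows of Prss35 and Phex, searched too and not shown, held no match either. Searched in the same way, 9.29% of the 140 windows of genes set off upward (100 of 138 genes matched) and 14.6% of the 82 windows of genes set off downward (65 of 86 matched) held the core, against 10.5% of the windows of all measured genes and 14.0% of all windows in the table. For the AP-1 letters TGANTCA, on both strands, the shares were 3.57%, 11.0%, 4.6% and 6.75%. A match is a description of these letters and not a bound site.

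The array was checked against its label and the quality of the series. Alcam had 267.7 on the ALCAM+ array, 41.1 on Sca-1+ and 36.3 on marker-negative, at least 3.55-fold above both, and its 3 other probe sets above the floor were also highest on ALCAM+. Alcam itself thus fell short of 4-fold. The other marker genes of these cells, Dmp1, Ifitm5, Cdh2 and Prss35, were each more than 20-fold above both arrays. These 4 were chosen with earlier results of these data known, so their values are no check of the label. Ptprc, the gene for CD45, had 11.6 on ALCAM+, under the floor, against 163.2 and 159.4, and Pecam1, the gene for CD31, was under the floor on the 3 arrays. Between 48.9% and 51.4% of probe sets were above the floor on each array. Spiked-in poly-A control RNAs were brighter on ALCAM+ (geometric mean 420.1) than on Sca-1+ (227.6) and marker-negative (271.9). Dividing each array by these controls moved the median of all measured genes by -0.81 on the log2 scale against Sca-1+ and by -0.55 against marker-negative, and turned the split of 138 and 86 genes into 73 and 233. With the hybridization controls the median moved by -0.73 and -0.43 and the split was 81 and 188. The folds below are therefore relative to the bulk of genes.

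**Figure D1:**
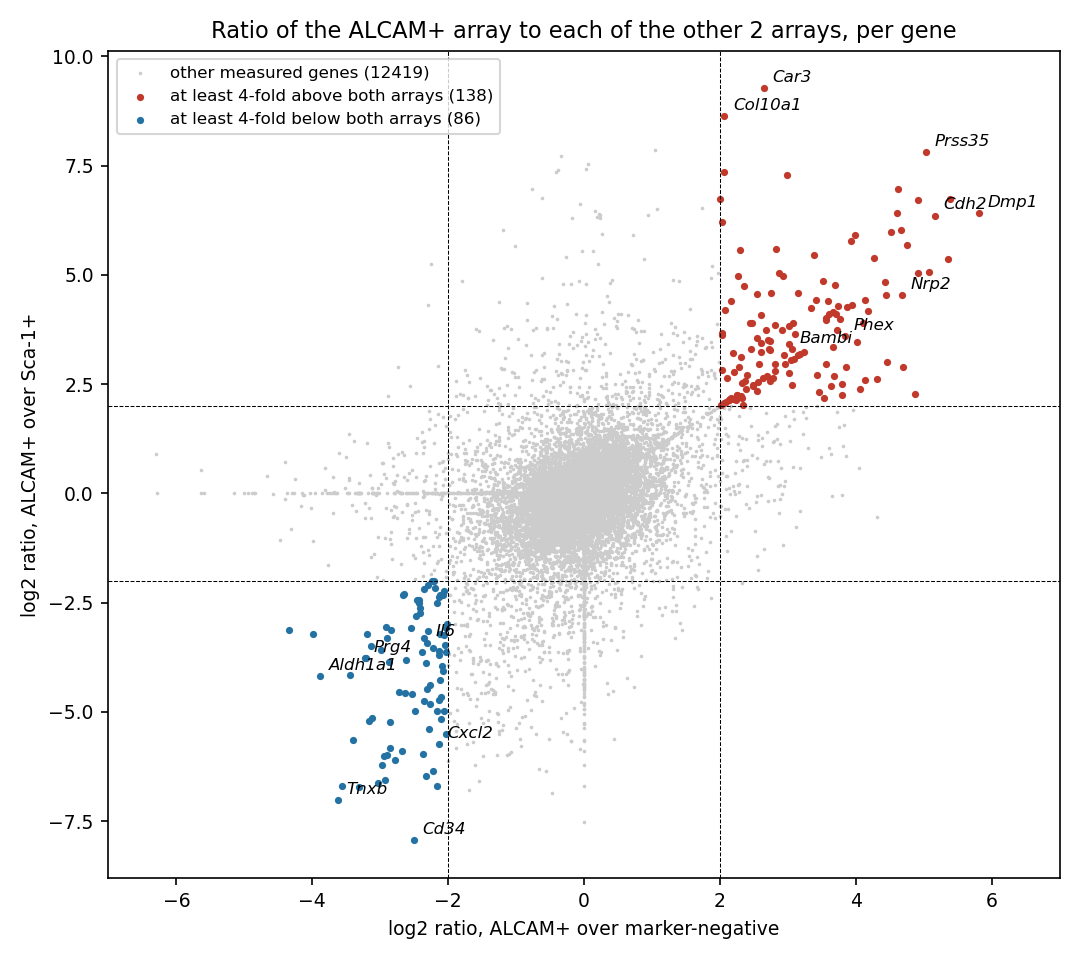
Each point is a measured gene, with the log2 ratio of ALCAM+ to marker-negative on the x axis and of ALCAM+ to Sca-1+ on the y axis, from 1 array each; dashed lines mark 4-fold. The 138 genes in the upper right corner and the 86 in the lower left are those set off from both arrays, with Dmp1 farthest to the right among them and Cd34 lowest.

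In the following, the 3 signals of a gene are given in the order ALCAM+, Sca-1+, marker-negative, as deposited linear MAS5 signals. Dmp1, an acidic matrix protein of osteocytes that binds mineral, had 6431, 11.8 and 114.7, which is 56.1-fold above both. Its probe set without a suffix, at 384.1, 1.2 and 35.3, gave at least 5.095-fold, since both other signals were under the floor. Phex, a membrane peptidase of osteocytes whose loss causes phosphate wasting, had 16703, 1376 and 1165 (12.1-fold). Ifitm5, a membrane protein made by mineralizing osteoblasts, had 7744, 90.2 and 319.2 (24.3-fold). For these genes ALCAM+ was the high array, and the other two differed from each other far less than either did from ALCAM+ on the floored scale. Other osteocyte genes set off were Ptprz1, a receptor phosphatase, at 1363, 44.5 and 54.1 (at least 18.1-fold), the homeobox gene Irx5 at 2490, 140.9 and 197.5 (12.6-fold) and the Wnt inhibitor gene Dkk1 at 586.8, 44.4 and 98.5 (5.96-fold). Of the 16 measured genes of the osteocyte list 5 were set off upward and 0 downward, with medians of 1.22 on the log2 scale against Sca-1+ and 1.14 against marker-negative, beside -0.01 and -0.03 over all measured genes. Against each array alone, 6 of the 16 were at least 4-fold above Sca-1+ (3.99% of all measured genes) and 6 above marker-negative (2.01%). The list was split: 9 of the 16 were highest on ALCAM+ and 5 lowest, where 28.1% and 30.8% of all measured genes were. Capg, an actin-capping protein gene, was the lowest of them against Sca-1+, at 659.0, 9951 and 1430.

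Of the osteoblast lineage list, 22 of 29 genes had a named probe set, and the rest were not analysed here. All 22 were measured, 19 were highest on ALCAM+, 5 were set off upward and 1, Gpnmb, downward. The 5 were Ifitm5, the collagen genes Col24a1 (3285, 31.1 and 315.8, 10.4-fold) and Col22a1 (12974, 2164 and 740.5, 6.00-fold), Kazald1, an IGF-binding-protein-like gene (17315, 3619 and 1244, 4.79-fold), and Creb3l1 (6079, 1492 and 1207, 4.07-fold), a transcription factor of the endoplasmic reticulum that drives collagen secretion. Sp7, the transcription factor needed for osteoblasts to form, had 2868, 77.7 and 779.0, or 3.68-fold. Ibsp, a mineral-binding matrix protein gene, had 37633, 161.4 and 18264, and Alpl, the phosphatase that frees phosphate for mineral, 24710, 299.4 and 12905. For Sp7, Ibsp and Alpl the marker-negative array lay between the other two, at least 10-fold above Sca-1+. Besides Gpnmb, the members not highest on ALCAM+ were Panx3, a channel gene of osteoblasts and hypertrophic chondrocytes, at 15858, 40.5 and 20137, and the pyrophosphate transport gene Ank at 4508, 6010 and 5667. Gpnmb, a glycoprotein of bone cells and macrophages, had 111.7, 5091 and 457.1 (4.09-fold below both). Under either spike-in scaling 15 of the 22 genes stayed highest on ALCAM+ and 2 were set off upward.

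The matrix genes and enzymes that act on matrix were the most numerous group set off upward, 20 genes from 4.18-fold to 56.1-fold with a median of 7.42-fold, of which 12 kept 4-fold under either spike-in scaling. Prss35, a serine protease-like gene, had 16799, 4.6 and 512.3 (32.8-fold), and Cpz, a Wnt-binding carboxypeptidase, 12738, 195.5 and 500.5 (25.5-fold). The fibrillin gene Fbn2 had 1657, 104.2 and 121.8 (13.6-fold), and Npnt, which encodes the integrin ligand nephronectin, 2263, 131.3 and 186.4 (12.1-fold). Each of these was low on both other arrays. The membrane collagen gene Col13a1 had 5952, 122.8 and 844.6 (7.05-fold), and the membrane metalloproteinase gene Mmp16 3623, 463.2 and 305.9 (7.82-fold). Cartilage genes met the rule with a different pattern: Col10a1, the collagen of hypertrophic cartilage, had 29730, 3.30 and 7100 (4.19-fold), and Matn1, a cartilage matrilin, 12270, 17.9 and 2933 (4.18-fold). Of the 25 measured chondrocyte genes 2 were set off upward (these) and 2 downward (Prg4 and Cilp). The list's median log2 ratio was 4.87 to Sca-1+ and 0.03 to marker-negative, with summed signals of 467126, 99642 and 461046, and Ucma, at 2826, 142.7 and 13852, was also at least 4-fold below marker-negative. The marker-negative signals of Col10a1 and Matn1 were high, and neither reached 4-fold under either spike-in scaling or after quantile normalization. The rest of the group were Chst13, Bcan, Hapln4, Adam12, Loxl4, a collagen cross-linking enzyme, and Cthrc1.

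In the group of adhesion and polarity genes, 12 genes were set off upward, from 5.22-fold to 35.9-fold. Of the 13 measured cadherins and protocadherins 3 were set off upward (1.09% of all measured genes) and 0 downward (0.68%). Cdh2, or N-cadherin, had 6178, 55.6 and 172.3 (35.9-fold). Cdh15, or M-cadherin, known from muscle precursors, had 1453, 41.2 and 99.7 (14.6-fold), and Cdh11, the osteoblast cadherin, 9730, 1305 and 670.5 (7.46-fold). These 3 genes were the cadherins set off, and they kept 4-fold under both spike-in scalings. Cdh13, or T-cadherin, went the other way at 145.5, 4337 and 310.5. Pard6g, a polarity complex gene, had 7047, 354.6 and 456.1 (15.5-fold), and Insc, which links polarity to the spindle, 3072, 106.6 and 268.0 (11.5-fold). Ptprz1, Ptprd, Fat3, Cadm1, Smagp, Tenm4 and Vstm4 completed the group, of which 9 kept 4-fold under either spike-in scaling. With the floor raised to the pooled 75th percentile 7 of the 12 did. Among integrins, Itga8 was set off downward at 107.3, 580.8 and 577.4 (5.38-fold), and Itga7, at 962.8, 241.1 and 214.1, lay just outside the rule upward at 3.99-fold.

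Axon guidance genes were set off upward in 5 of 41 measured cases and downward in 0, beside 1.09% and 0.68% of all measured genes. Chn1, which encodes a Rac-inactivating protein that acts below guidance receptors, had 3117, 14.2 and 76.2 (40.9-fold). Nrp2, a receptor of semaphorins and of vessel growth factors, had 15408, 666.0 and 601.6 (23.1-fold). The secreted repellent gene Slit2 had 3167, 148.4 and 181.1 (17.5-fold). Ligand genes Sema6d (3526, 640.0 and 283.9, 5.51-fold) and Sema4d (2747, 183.5 and 504.9, 5.44-fold) completed the 5. Other probe sets of the 5 genes that were above the floor on at least 1 array were also highest on ALCAM+. The list was not uniform: 19 of 41 genes were highest on ALCAM+ and 9 lowest, where 28.1% and 30.8% of all measured genes were. Under poly-A scaling these counts became 13 and 17. The netrin gene Ntn1 was at 3.70, 2656 and 216.3. The related genes Ppfia2 and Lingo3, known from synapses, and Farp2 were also set off upward, and 6 of these 8 genes kept 4-fold under either spike-in scaling.

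**Figure D2:**
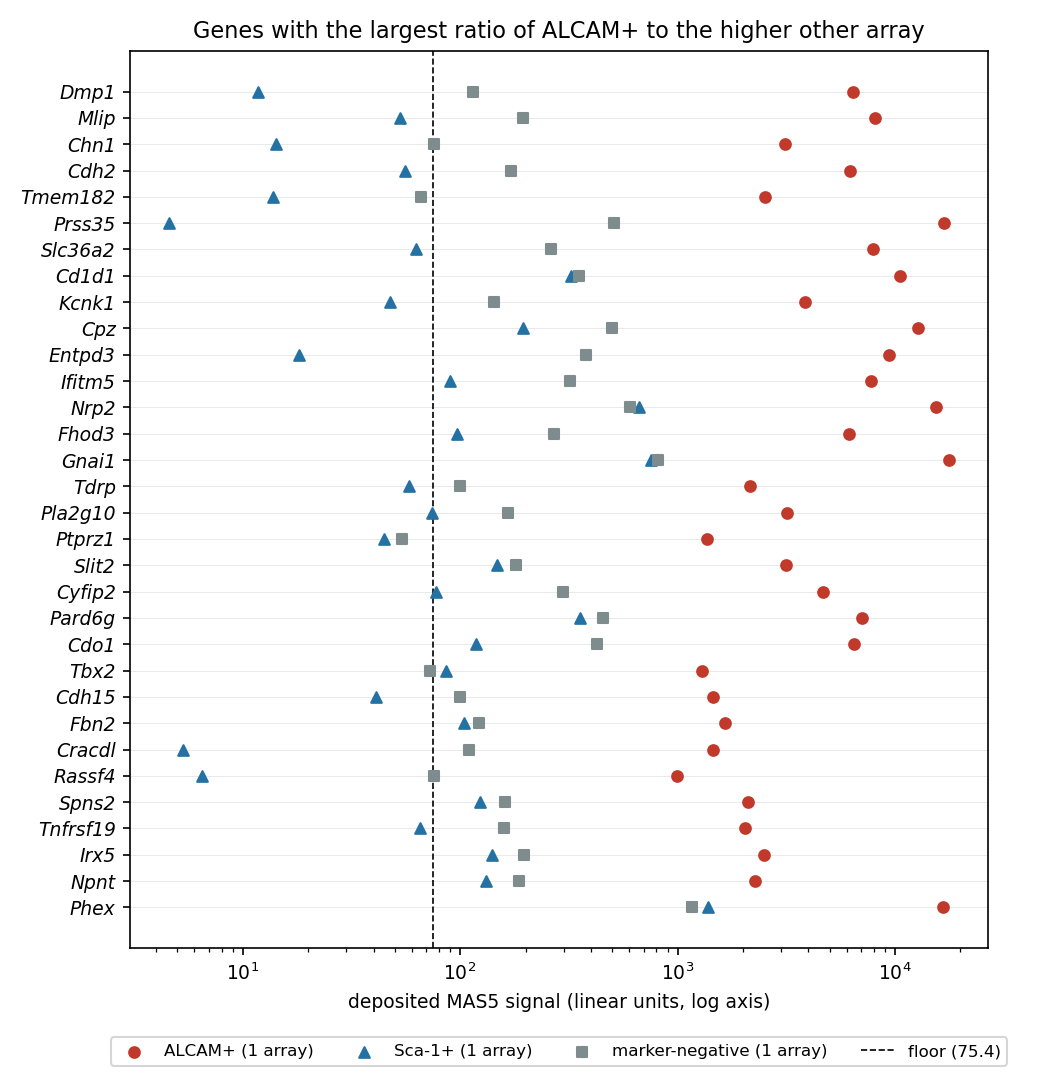
Deposited signal (log axis) on the 3 arrays for the 32 genes with the largest fold above both other arrays, in that order; the dashed line is the floor of 75.4. The ALCAM+ point lies to the right in every row, and for several genes, such as Tmem182 and Ptprz1, both other points lie under the floor.

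Wnt, BMP and PDGF signalling gave 9 genes set off upward, from 4.005-fold to 12.9-fold. Bambi, a decoy receptor that dampens TGF-beta and BMP signals, had 14976, 1520 and 1801 (8.31-fold). Bmp6 had 4358, 698.9 and 1013 (4.30-fold), and Pdgfd, a growth factor gene, 3816, 517.4 and 147.8 (7.38-fold). On the Wnt side stood Tnfrsf19 (2048, 65.7 and 159.0, 12.9-fold), Ccn4, a Wnt-induced matrix signalling gene (10822, 228.4 and 2197, 4.93-fold), Tcf7l2, a transcription factor of the Wnt pathway (3004, 670.5 and 660.9, 4.48-fold), Ankrd6, Dkk1 and Frzb. Frzb, a secreted Wnt antagonist, had 8067, 71.3 and 2014, the last gene inside the rule. Of 31 measured Wnt genes 4 were set off upward and 0 downward, beside 1.09% and 0.68% of all measured genes. Highest on ALCAM+ were 8 (25.8%) and lowest 9 (29.0%), near the 28.1% and 30.8% of all measured genes. The antagonists split, with Dkk1 and Frzb high on ALCAM+ and Dkk2 (40.2, 6188 and 111.5), Sfrp1 (125.7, 2900 and 93.2) and Sfrp4 (731.7, 25312 and 1381) high on Sca-1+. Of the 9 genes, 2 kept 4-fold under poly-A scaling and 4 under hybridization control scaling.

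Genes of lipid mediators and G protein signals formed a group of 9, with a median of 11.8-fold, of which 8 kept 4-fold under either spike-in scaling. With the floor raised to the pooled 75th percentile 7 of the 9 did. Gnai1, an inhibitory G protein subunit gene, had 17632, 757.8 and 810.5 (21.8-fold). Pla2g10, a secreted phospholipase that frees arachidonic acid, had 3170, 74.2 and 165.5 (19.2-fold), and Hpgd, the enzyme that inactivates prostaglandins, 8171, 386.1 and 676.2 (12.1-fold). The sphingosine-1-phosphate exporter gene Spns2 (2113, 123.5 and 161.1, 13.1-fold) and the receptor gene S1pr3 (11688, 827.2 and 1443, 8.10-fold) were both set off. Lpar3, a receptor for lysophosphatidic acid, had 1541, 151.3 and 121.1 (10.2-fold). Gucy1a1, a subunit of the nitric oxide receptor, Ramp1, a partner of the calcitonin receptor family, and Ptges3l were the others.

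Mineral, ion and metabolic genes set off upward included 4 of 21 measured members of the phosphate, calcium and mineral list, namely Dmp1, Phex, Car3 and Entpd3, with 0 downward and the same 4 under both spike-in scalings. Over all measured genes 1.09% were set off upward and 0.68% downward. Car3, a carbonic anhydrase also abundant in muscle and fat, had 46407, 51.9 and 7384 (6.28-fold). Entpd3, an enzyme that breaks down extracellular ATP, had 9389, 18.1 and 380.0 (24.7-fold). Slc36a2, a proton-coupled glycine and proline transporter, had 7906, 62.4 and 261.8 (30.2-fold), and the potassium channel gene Kcnk1 3866, 47.8 and 143.9 (26.9-fold). Cdo1, which oxidizes cysteine, had 6484, 118.9 and 426.3 (15.2-fold). Galnt3, the enzyme whose glycosylation protects the phosphate hormone FGF23, had 1807, 47.6 and 269.2 (6.71-fold). By contrast Car2 and Car12, at 2879, 17.0 and 13751 and at 2106, 277.5 and 9357, were highest on marker-negative.

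Genes best known from skeletal and heart muscle gave 11 upward members, from 4.38-fold to 41.6-fold. Mlip, a lamin-interacting protein gene, had 8080, 53.2 and 194.0 (41.6-fold). Tmem182 had 2536, 13.8 and 65.9 (at least 33.6-fold), and the formin gene Fhod3, which organizes actin in heart muscle, 6136, 97.2 and 269.4 (22.8-fold). Dtna (at least 8.91-fold), Hrc, Pygm, Srl, Sorbs2, Chrna1, Fabp3 and Stac3 were the others, and 7 of the 11 kept 4-fold under poly-A and 9 under hybridization control scaling. With the floor raised to the pooled 75th percentile 4 of the 11 did, and 3 kept 4-fold in every processing. Of the skeletal muscle list, 20 genes in all, 10 were measured, 3 of them set off upward (Mlip, Cdh15 and Chrna1) and 0 downward. Beside these counts, 1.09% of all measured genes were set off upward and 0.68% downward. The summed signal of the list was 13101, 620.2 and 4050, most of it on ALCAM+ from Mlip. Of the 10 genes 4 were highest on ALCAM+ and 1 lowest, where 28.1% and 30.8% of all measured genes were. The median log2 ratio of the list was 1.52 to Sca-1+ and -0.04 to marker-negative. Defining genes of muscle fibres and their precursors, Myh1, Myh2, Myh4, Ckm, Myod1, Myog, Pax7 and Musk, were under the floor on the 3 arrays. Acta1 (528.5, 51.2 and 627.3), Tnni2 (2175, 57.8 and 2288), Tnnt3 (110.4, 49.6 and 279.2) and Mylpf (102.4, 41.7 and 251.2) were as high or higher on marker-negative.

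Transcription factors set off upward were 9: Tbx2 (1298, 86.5 and 72.6), Irx5, Csrnp3, Creb3l3, Hoxb2, Satb1, Bend5, Sp6 and Creb3l1, of which 4 kept 4-fold under poly-A and 5 under hybridization control scaling. With the floor raised to the pooled 75th percentile 2 of the 9 did. Sp6 was the only gene set off upward whose other probe set was not highest on ALCAM+. A further 18 were regulators of small GTPases, kinases and the cytoskeleton, led by Cyfip2, a component of the actin-nucleating WAVE complex (4672, 77.9 and 296.0, 15.8-fold), Rassf4 (999.4, 6.50 and 76.0, 13.2-fold) and the kinase gene Stk17b (7437, 348.8 and 700.0, 10.6-fold). Immune genes were 6, with Cd1d1, a lipid-presenting molecule, far above the rest at 10587, 323.9 and 352.4 (30.0-fold) and the others, Btla, Gimap6, Ncf1, Cd59a and Ifitm1, between 4.999-fold and 6.73-fold. Under either spike-in scaling 1 of these 6 kept 4-fold, and of the 18 regulators 6 did under poly-A and 8 under hybridization control scaling. The 75th percentile floor left 2 of the 6 immune genes and 10 of the 18 regulators. The remaining 21 genes were not grouped and included Tdrp (2153, 58.1 and 100.1, 21.5-fold), Cracdl and Krtap17-1 (11672, 32.8 and 1469, 7.95-fold).

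Which of the other arrays came second differed with direction. For 104 of the 138 upward genes the marker-negative array was the brighter of the other two and for 34 Sca-1+ was. The other two lay within 2-fold of each other for 85 of the 138, and marker-negative was at least 4-fold above Sca-1+ for 18, among them Car3, Col10a1 and Matn1. For 22 genes both others were at or below the floor. A further measured probe set existed for 70 upward genes, 69 of which had all such probe sets highest on ALCAM+, and in 57 another reached 2-fold.

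Matrix genes were also the most numerous group set off downward, again 20 genes, from 4.19-fold to 12.3-fold with a median of 6.64-fold. All 86 downward genes stayed set off under either spike-in scaling, which lowers ALCAM+ relative to the other arrays. Raising the floor to the 75th percentile left 22 of the 86, and 7 of these 20 matrix genes. Tnxb, a tenascin of loose connective tissue, had 158.6, 20505 and 1951 (12.3-fold). Prg4, the joint lubricant lubricin, had 1950, 26651 and 18212 (9.34-fold), and Tgfbi, a TGF-beta-induced matrix protein gene, 1523, 20670 and 14080 (9.24-fold). Cilp, a cartilage intermediate layer protein gene, had 2298, 19978 and 16447 (7.16-fold), and its relative Cilp2 234.6, 3395 and 1715 (7.31-fold). For Prg4, Tgfbi and Cilp both ALCAM-negative arrays were high and near each other. Others were graded, with Sca-1+ highest: Pamr1 had 165.6, 8299 and 1747 (10.6-fold), Emilin2, an elastic fibre-associated gene, 65.3, 7863 and 887.6 (at least 11.8-fold), and the serine protease gene Htra4 38.6, 7934 and 747.0 (at least 9.91-fold). Vcan, the proteoglycan versican, had 195.8, 14580 and 1539 (7.86-fold). Of its 3 other measured probe sets only 1 was lowest on ALCAM+, while 1 was highest there and 1 had 10.4, 1443 and 8.3. Itih5, Aebp1, Angptl7, Abi3bp, Adamtsl4, Sparcl1, Smoc1, Ltbp4, Egfl6, Sulf2 and Pxdn completed the group.

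Innate immune and inflammatory genes set off downward were 12, of which 3 kept 4-fold under the 75th percentile floor. Il33, an alarm cytokine of stromal cells, had 40.9, 5131 and 521.1 (at least 6.91-fold), Il6 had 881.7, 9399 and 4377 (4.96-fold), and the neutrophil attractant gene Cxcl2 41.7, 4009 and 332.3 (at least 4.41-fold). These were the 3 of 24 measured cytokine and chemokine genes set off downward, with 0 upward, and 12 of the 24 were lowest on ALCAM+ and 1 highest. Over all measured genes 0.68% were set off downward and 1.09% upward, and 30.8% were lowest and 28.1% highest. Clu, a secreted chaperone gene, had 3997, 21774 and 22015 (5.45-fold), and the acute phase genes Serpina3n and Lbp had 89.5, 5105 and 648.9 (7.25-fold) and 517.1, 13587 and 2269 (4.39-fold). S100a8, also a neutrophil gene, had 77.3, 4901 and 575.9 (7.45-fold), and the lysozyme gene Lyz1 70.8, 2823 and 543.5 (at least 7.21-fold). Lyz1 fell to 1.0-fold in its least favourable processing. Its probe set without a suffix, at 41.3, 21.9 and 61.2, was under the floor on the 3 arrays. The neutrophil list, which includes S100a8, was split. On the floored scale 6 of its genes were lowest on ALCAM+ and 0 highest, and 1, S100a8 itself, was set off downward. Mpo (25.2, 91.4 and 1355), Elane, Prtn3 and Ctsg were highest on marker-negative, whereas S100a8 was highest on Sca-1+. Of its 14 measured genes 12 were at or below the floor on ALCAM+, 2 on Sca-1+ and 6 on marker-negative, with summed signals of 544.5, 18256 and 4008. The part of neutrophils or macrophages in these differences was not tested.

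Surface receptors and their ligands gave 10 downward genes, of which 1 kept 4-fold under the 75th percentile floor. Cd34, a surface marker of progenitors and fibroblasts, had 21.7, 18453 and 427.3 (at least 5.67-fold), and Procr, the protein C receptor, 82.7, 7299 and 415.9 (5.03-fold). F2r, the thrombin receptor gene, had 467.2, 9798 and 2239 (4.79-fold). Cd34 and Procr both fell to 1.0-fold in their least favourable processing. Cd34 and Tnxb were the 2 of 26 measured progenitor and fibroblast genes set off downward, with 0 upward. The median of that list was -4.52 on the log2 scale against Sca-1+ but 0.00 against marker-negative. At least 4-fold below Sca-1+ were 19 of the 26 (5.86% of all measured genes), and below marker-negative 2 (2.67%). None of the 18 niche factor genes was set off in either direction, beside 1.09% upward and 0.68% downward of all measured genes. Against Sca-1+ alone 11 of the 18 were at least 4-fold lower and 2 higher, and against marker-negative 0 and 2. Cxcl12, for example, had 319.7, 20123 and 778.3, which is less than 4-fold under marker-negative.

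IGF-binding proteins carry and modulate insulin-like growth factors, which stimulate bone formation. Igfbp5 had 625.6, 19854 and 3528 (5.64-fold below both), Igfbp6 949.2, 22942 and 5474 (5.77-fold), and both were set off, although Igfbp5 did not keep 4-fold in every processing. Igfbp3 (35.4, 1507 and 199.4), Igfbp4 (1234, 18519 and 3016) and Igfbp7 (4878, 23660 and 15762) were also lowest on ALCAM+ but within 4-fold of marker-negative. Igf1 itself had 1009, 16476 and 2001. Of the 19 measured IGF and hormone genes 11 were lowest on ALCAM+ and 3 highest, where 30.8% and 28.1% of all measured genes were. The 3 were the parathyroid hormone receptor gene Pth1r, the vitamin D receptor gene Vdr (2627, 141.8 and 892.8) and Stc2. Gdf10, a TGF-beta family ligand, had 1338, 6686 and 8483 (4.999-fold below both), the opposite of Bmp6. Igfbp5, Igfbp6 and Gdf10 all kept 4-fold under the 75th percentile floor.

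Among downward genes above the floor on the 3 arrays, the largest fold was that of Aldh1a1, a retinal dehydrogenase, at 100.7, 1824 and 1488 (14.8-fold), whereas its relative Aldh1a3 was set off upward at 6991, 1548 and 605.4 (4.52-fold). The enzyme group held 8 genes, among them Adcy7, Sod3, an extracellular superoxide dismutase (122.3, 7672 and 632.2, 5.17-fold), and Enpp3. Transporters and channels were 6, led by the lipid transporter gene Abca3 (94.8, 1686 and 1035, 10.9-fold). Transcription and genome maintenance gave Lmo2 (35.8, 702.0 and 1196, at least 9.31-fold), Meox2 (78.4, 5061 and 606.1, 7.73-fold), Aff3 and Rad52. Among 11 cytoskeletal and organelle genes, Cav1, the coat protein of caveolae, had 569.1, 13504 and 3519 (6.18-fold), and S100a4, a fibroblast marker, 636.1, 17182 and 3262 (5.13-fold). The noncoding RNA genes Meg3 (1098, 9218 and 6433, 5.86-fold) and Pvt1 and 10 ungrouped genes made up the rest. Under the 75th percentile floor 0 of the 8 enzymes and 0 of the 6 transporters and channels kept 4-fold. Aldh1a1 fell to 3.43-fold in its least favourable processing. Of the 11 cytoskeletal and organelle genes 4 kept 4-fold under that floor, of the 4 transcription and genome maintenance genes 1, and of the 2 noncoding RNA genes 1. Pericyte and smooth muscle genes, 12 measured, were lowest on ALCAM+ in 7 cases and highest in 0, as for Acta2 (970.7, 3821 and 3532), but 0 were set off. Over all measured genes 30.8% were lowest and 28.1% highest.

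**Figure D3:**
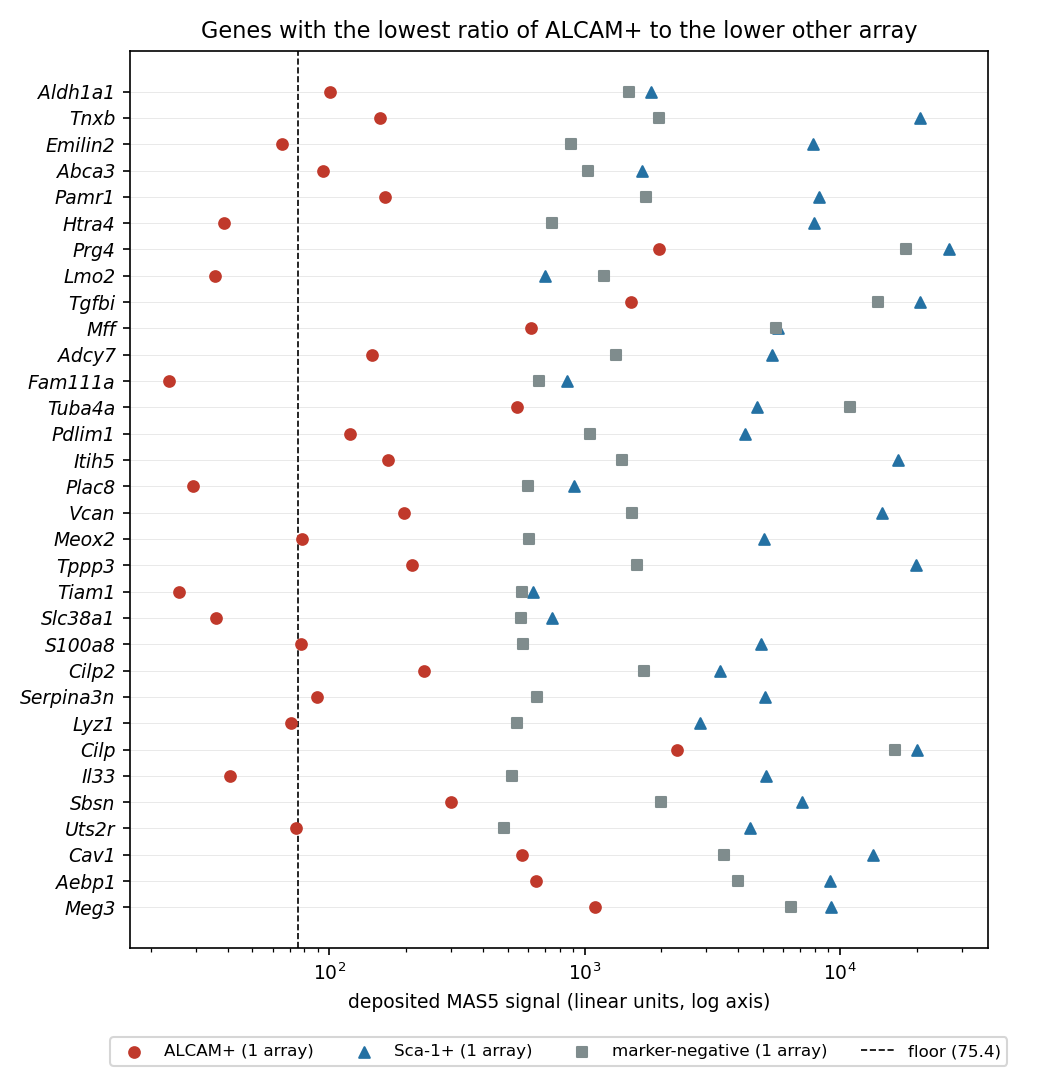
Deposited signal (log axis) on the 3 arrays for the 32 genes with the largest fold below both other arrays, in that order, bounds included; the dashed line is the floor of 75.4. The ALCAM+ point lies to the left in every row, and the marker-negative point lies between the other two for most genes but to the right for Lmo2 and Tuba4a.

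Among downward genes marker-negative was the dimmer of the other two for 76 of the 86 and Sca-1+ for 10, and Sca-1+ was at least 4-fold above marker-negative for 35. For 19 genes ALCAM+ was at or below the floor. A further measured probe set existed for 37 downward genes, and by the deposited signals 33 of these had all such probe sets lowest on ALCAM+. The exceptions were Clcn5, Mff, Pvt1 and Vcan. After signals were raised to the floor, which ties low values, 25 still had all of them lowest. Over 4152 genes with a second probe set above the floor on the 3 arrays, the difference between both probe sets had an SD of 0.62 on the log2 scale for either ratio, and 90.8% and 89.2% of pairs were within 2-fold for the upward and downward ratio. At the edge of the rule, Frzb (4.005-fold) was inside and Itga7 (3.99-fold) outside upward, and Itpr3 (4.02-fold) was inside and Rarres2 (just under 4-fold) outside downward.

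Broad lists showed where many small differences lay the same way. Secretory pathway and collagen maturation genes were highest on ALCAM+ in 19 of 31 cases and immediate early genes, which are switched on fast by stimuli, in 18 of 22, but by small amounts, with median log2 ratios to the brighter other array of 0.12 and 0.22, beside -0.35 over all measured genes. These counts fell to 5 and 0 under poly-A scaling and to 6 and 0 under hybridization control scaling, so neither direction held across scalings. Within the secretory list the set-off members were Creb3l1 and Loxl4, and Lox, the main collagen cross-linking enzyme, had 24173, 8081 and 3362 (2.99-fold). Complement and acute phase genes were lowest on ALCAM+ in 6 of 11 cases and highest in 0, with none set off. The shares over all measured genes were 30.8% lowest and 28.1% highest. Erythroid and cell cycle genes were set off in neither direction (0 of 17 and 0 of 30), beside 1.09% upward and 0.68% downward of all measured genes. Their median log2 ratios to marker-negative were -4.03 and -3.21. The summed signals were 5166, 847.0 and 61168 for the erythroid list and 49623, 32882 and 104019 for the cell cycle list, and 9 members of each list were at or below the floor on ALCAM+ against 15 on Sca-1+. Of 15 endothelial genes 6 were measured, with summed signals of 816.2, 2545 and 1150, and the defining genes Pecam1, Cdh5 and Tie1 were under the floor on the 3 arrays. Above the floor on ALCAM+ were Eng, also made by stromal cells (410.9, 1172 and 670.2), Plvap (164.1, 545.6 and 100.3), Egfl7 (89.9, 71.3 and 217.2) and Kdr (76.7, 53.8 and 62.2). Of 15 lymphocyte genes 4 were measured, with sums of 682.7, 3002 and 533.4: Ebf1 (271.7, 2691 and 107.9), Cd8a (208.7, 164.1 and 183.8), Ighm (176.5, 86.2 and 133.1) and Pax5, which was under the floor on ALCAM+. Cd79a, Cd3e and Rag1 were under the floor on the 3 arrays.

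**Figure D4:**
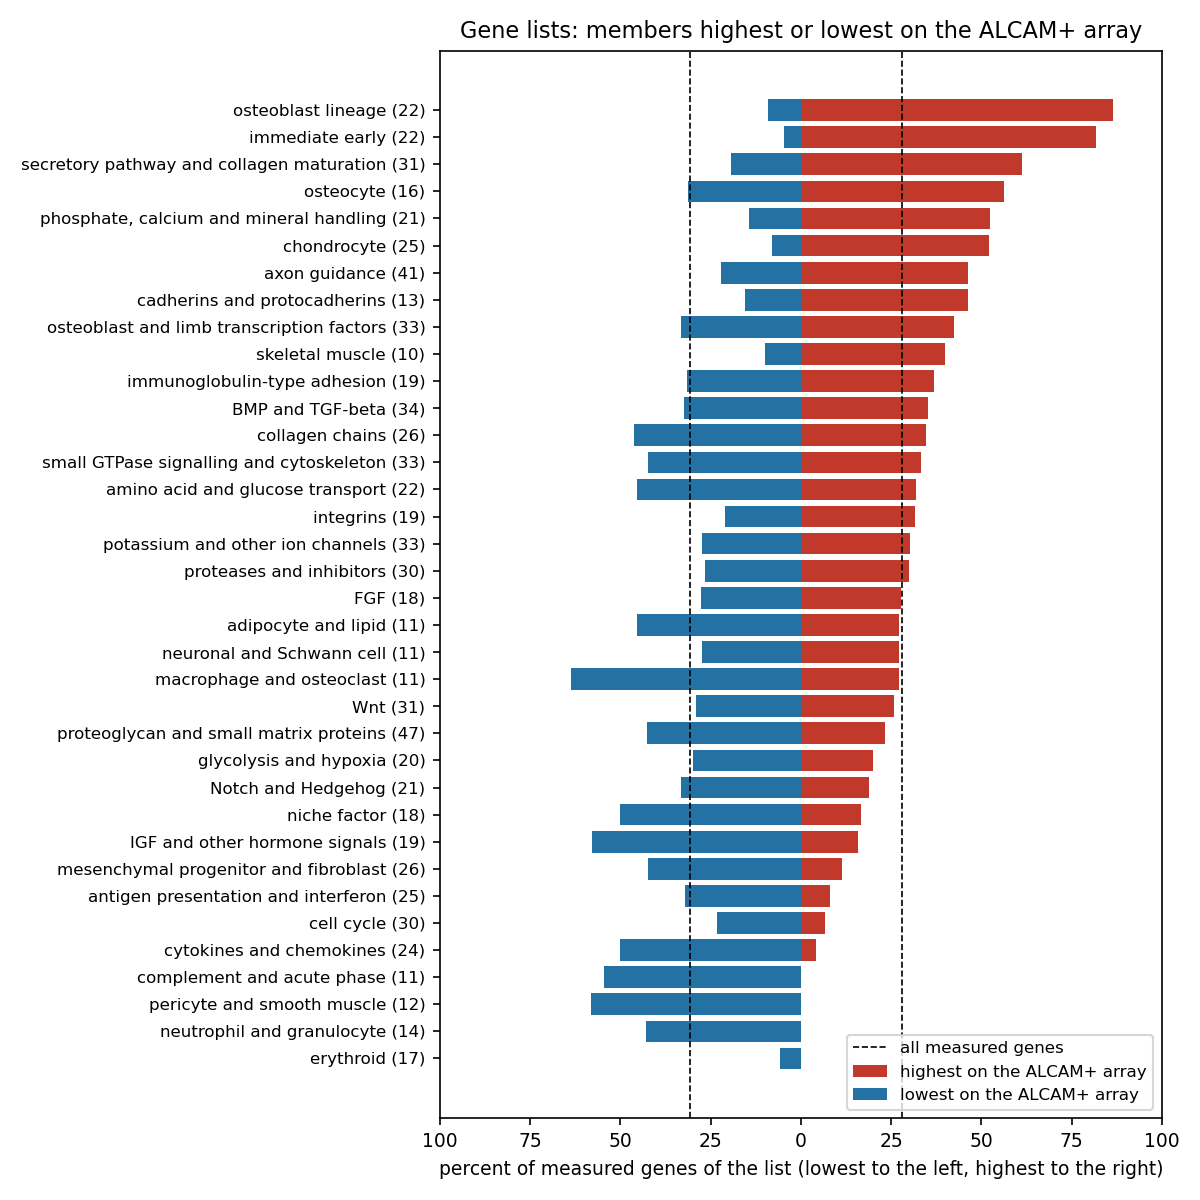
For each gene list with at least 10 measured members (number in brackets), the percent of members highest on ALCAM+ (right) and lowest on ALCAM+ (left) by any amount; dashed lines give the same for all measured genes, 28.1% and 30.8%. The osteoblast lineage list reaches 86.4% highest, and the immediate early and secretory lists, next in order, lose this under spike-in scaling.

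Counted by the same rule, Sca-1+ had 510 genes set off upward and 254 downward and marker-negative 205 and 59, so ALCAM+ had the fewest upward. Across 7 other ways of computing the values, 40 of the 138 upward genes and 14 of the 86 downward genes had a value in every one and stayed at least 4-fold apart. The 40 included Dmp1, Prss35, Cpz, Ifitm5, Phex, Cdh2, Cdh11, Nrp2, Slit2, Chn1, Mlip, Gnai1, S1pr3, Bambi and Car3. The 14 were Tnxb, Pamr1, Prg4, Tgfbi, Cilp, Abi3bp, Clu, Il6, Igfbp6, Gdf10, Cav1, S100a4, Sbsn and Ccdc3.

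**Figure D5:**
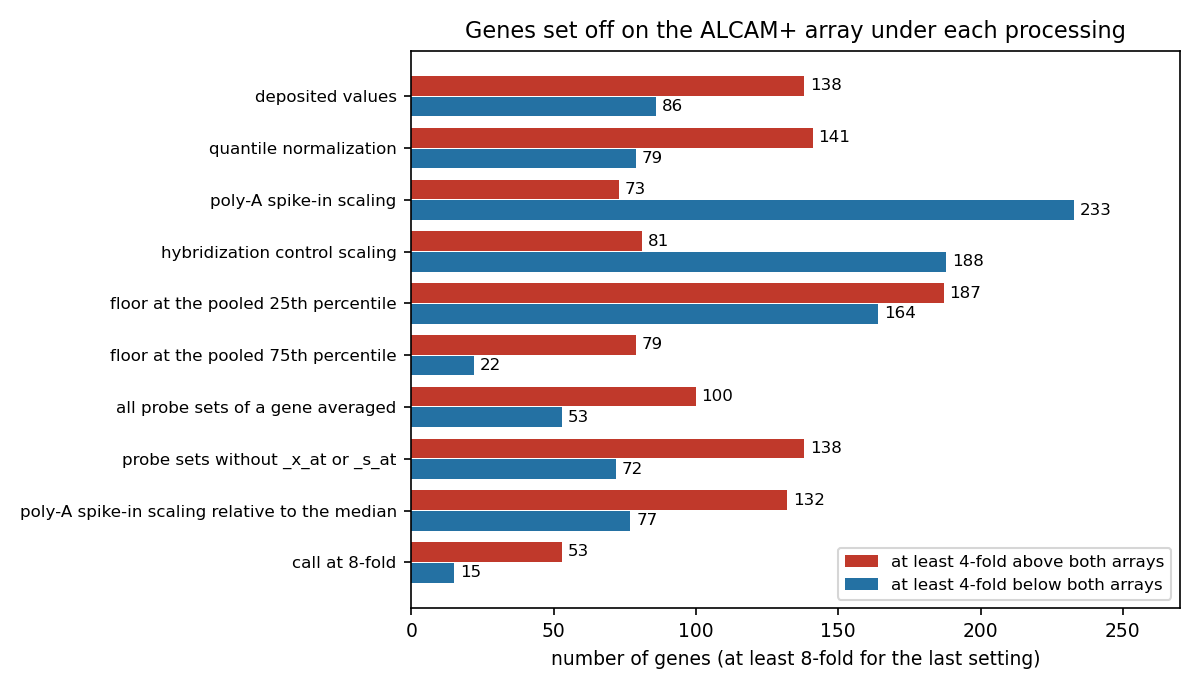
Number of genes set off upward and downward on the ALCAM+ array with the deposited values and under each alternative processing; the last pair uses 8-fold instead of 4-fold. The balance turns from 138 against 86 to 73 against 233 under poly-A scaling and to 79 against 22 with the highest floor.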

How the data were processed

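RNA of 3 sorted populations was measured on 1 array each. TRIzol was used for extraction and a 2-cycle amplification for biotin labelling, per the labels' protocols. The deposited values are linear signal intensities. MAS5 is named in the submitters' processing notes, without a version. Of 45037 probe sets other than 64 controls, 34945 had 1 gene symbol in the platform annotation, 932 several and 9160 none. Of the named ones 34741 were found in a RefSeq table (GRCm38.p6) by Entrez identifier, which changed 0 symbols. A gene was represented by its brightest probe set (18193 genes), signals were raised to the pooled median of 75.4, and log2 ratios of ALCAM+ to each other array were taken in Python 3.11.15 with pandas 2.3.3. A gene was set off if both ratios were at least 4-fold in the same direction. Depth is not defined for arrays, and their number, 1 per population, limits the precision. The rule was tested on simulated data with shifts far above 4-fold in bright genes. That test does not cover calls near 4-fold or near the floor.

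The members, the 39 gene lists and the rules were chosen with earlier results of these data known. Named are the marker genes, in each direction the genes with the largest ratio above the floor on both sides and the brightest of those with a bound, members of lists that were set off or had the largest ratios, and further genes chosen after their values were seen. Alternatives were quantile normalization, scaling on poly-A or hybridization controls, floors at the pooled 25th and 75th percentile, averaged probe sets, probe sets without the suffixes _x_at and _s_at, and an 8-fold rule.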

Additional observations from a re-analysis of the deposited data

How the results depend on the processing

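With the deposited values 138 genes were set off upward and 86 downward. Scaling on poly-A controls gave 73 and 233, scaling on hybridization controls 81 and 188, the 75th percentile as floor 79 and 22, and the 8-fold rule 53 and 15. Averaging all probe sets of a gene left 100 upward and 53 downward, and the 25th percentile as floor raised the counts to 187 and 164. Quantile normalization gave 141 and 79, of which 133 and 79 were shared with the deposited values. Of all calls 61.6% were upward with the deposited values, 23.9% with poly-A scaling and 30.1% with hybridization control scaling. After poly-A scaling with the median of all genes set back to 0, an alternative chosen after seeing the data, the counts were 132 and 77, with 130 and 71 shared. Of the 138 and 86 genes, Mff alone turned its direction in any alternative: its log2 ratio was 0.40 with probe sets without the suffixes _x_at and _s_at. The cause was not tested. No paired analysis was possible because each population was measured on 1 array. Signal near the floor limits the folds given as bounds, 22 upward and 19 downward.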

Other observations

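Of the 9160 probe sets without a gene name here, 3468 were above the floor on at least 1 array. By the same rule 39 of these (1.12%) were set off upward on ALCAM+ and 7 (0.202%) downward, against 1.09% and 0.68% of the named genes.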
